A study of Mus musculus with 4 samples.

Results

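The BCL2 family genes described here were 10 genes chosen by name: the survival genes Bcl2, Bcl2l1 and Mcl1, the pore-forming death genes Bax and Bak1, and the BH3-only death genes Bcl2l11, Bbc3, Pmaip1, Bid and Bad. Probe sets whose platform annotation gave a single member symbol were taken, which gave 29 probe sets for 9 of the 10 genes, out of 34945 single-gene probe sets for 18193 genes. Bax was not analysed here. A probe set is a group of short probes read together as 1 signal, and 7 of the 9 measured genes had more than 1.

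The series measured 4 populations of CD4 T cells from spleen and lymph nodes of C57BL/6 mice aged 8 to 10 weeks, each on 1 Affymetrix array and each sorted after culture by IL-17, read through GFP, and by Foxp3, read through APC. The exFoxp3Th17 array held IL-17 positive, Foxp3 negative cells that began as Foxp3+ CD4 T cells and were cultured in Th17 conditions. The Th17 array held cells of the same gate that began as naive CD4 T cells in the same conditions. Treg cells were Foxp3 positive and IL-17 negative and came from Foxp3+ CD4 T cells cultured with IL-2, and Th0 cells were negative for both markers and came from naive CD4 T cells under Th0 conditions. The labels give neither the number of animals nor their sex, no group has a replicate, and every difference below is a difference between single arrays. In bulk RNA such as this, fewer cells with a transcript and less transcript per cell cannot be told apart.

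BCL2 family proteins decide whether the outer membrane of the mitochondrion is opened, the step that commits most cells to apoptosis. BCL2, BCL-XL (from Bcl2l1) and MCL1 hold the membrane closed, BAX and BAK form the pores, and the BH3-only proteins BIM (from Bcl2l11), PUMA (from Bbc3), NOXA (from Pmaip1), BID and BAD bind the survival proteins or activate the pore formers. In T cells this balance is known to follow cytokine supply: IL-2 and IL-7 maintain BCL2 and MCL1, and BIM is a main killer of T cells that lose cytokine.

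All 11 measured CD4 T cell identity genes lay above the floor on every array, where the floor is the median signal of all probe sets, 12.1. Most markers of other cells were near or below it. The CD8 gene Cd8b1 was above it on every array, at 64.9 in exFoxp3Th17, 83.5 in Th17, 51.7 in Treg and 64.6 in Th0, while Cd8a was at 11.1 to 14.3. Summed CD8 signals were 76.5, 97.0, 66.0 and 75.7 in the same order. Of 6 macrophage and monocyte markers, 1, 1, 2 and 2 lay above the floor in exFoxp3Th17, Th17, Treg and Th0, with summed signals of 31.4, 37.9, 45.3 and 78.7, and Adgre1 reached 32.2 in Th0. Of 6 B cell markers at most 1 did on any array (summed signals of 37.4, 48.6, 68.2 and 32.9 in the same order), and Cd79b reached 55.6 in Treg, while Cd79a and Ms4a1 were below the floor throughout. Neutrophil markers numbered 0 to 1 of 5 above the floor, dendritic cell markers 0 to 2 of 4 (both of these in Th0) and NK cell markers 0 to 1 of 2. The sort marker Foxp3 was at 585 in Treg and at 4.25 to 8.03 on the other arrays, while the single Il17a probe set was below the floor on all 4 (7.1 to 9.8), so it did not mark the IL-17 gate. The X-linked RNA Xist stood at 3766 in exFoxp3Th17 against 7.73 in Th17, 10.8 in Treg and 7.41 in Th0. The Y-linked gene Eif2s3y stood at 4.66 in exFoxp3Th17 against 876 in Th17, 654 in Treg and 747 in Th0. A difference in the sex of the mice and a difference between cell populations therefore cannot be told apart in any comparison with the exFoxp3Th17 array.

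Across the 4 arrays, 5 of the 9 measured members had a range of 2-fold or more, against 35.4% of all genes above the floor. They were Pmaip1 (9.11-fold), Bcl2 (4.61-fold), Bbc3 (3.12-fold), Bid (2.83-fold) and Bcl2l11 (2.68-fold). The other 4, Bcl2l1, Mcl1, Bak1 and Bad, ranged from 1.41-fold to 1.54-fold. These ranges are of each gene's probe set of highest mean log2 signal. Among the other probe sets, 1443837_x_at of Bcl2 ranged 9.55-fold and 1437527_x_at of Mcl1 1.98-fold. A member was called higher or lower if its signal on 1 array was at least 2-fold that on the other and itself above the floor, with each gene read from the probe set of highest mean log2 signal. No test is possible with single arrays. The only error these data give is the disagreement between 2 probe sets of a gene, whose log2 ratios differed with a robust SD of 0.42 to 0.50.

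**Figure D1:**
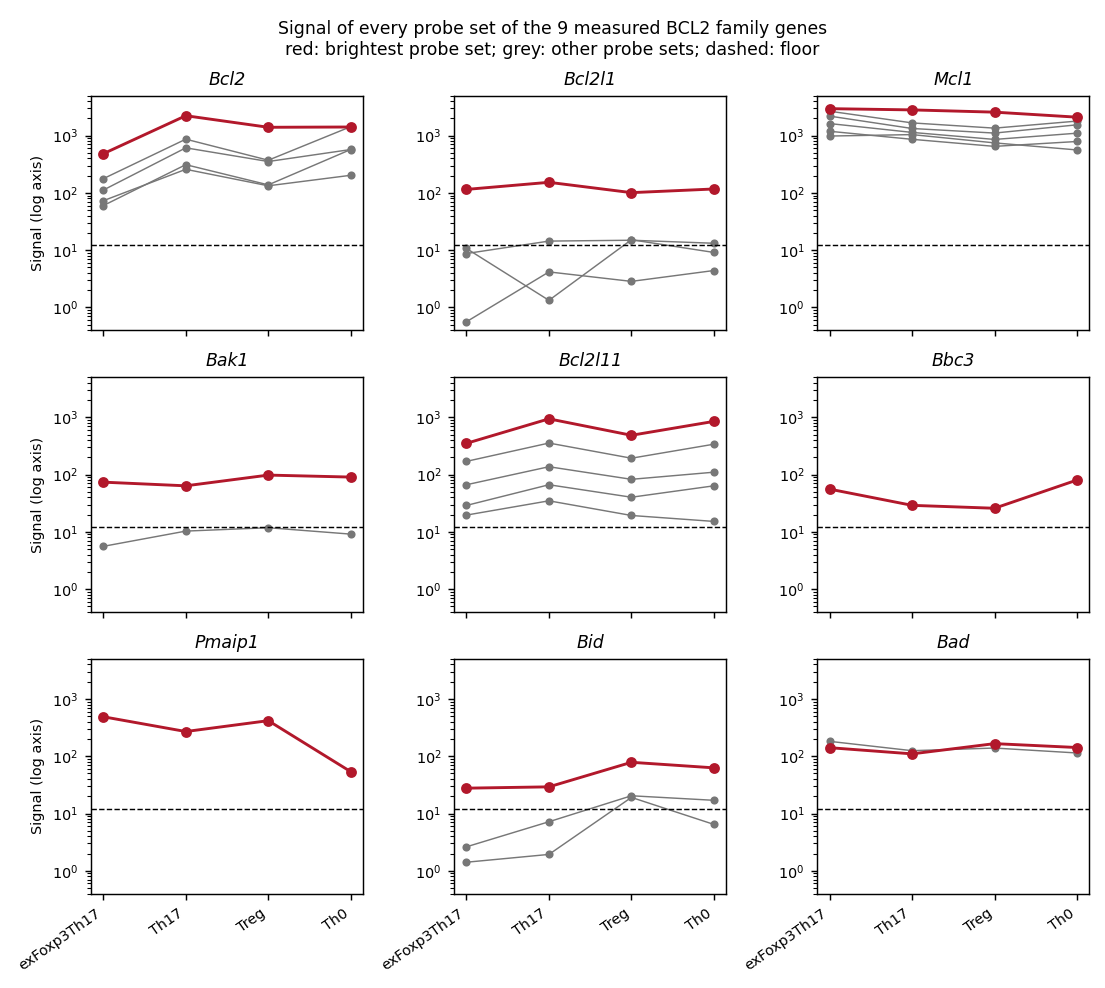
Deposited signal (log axis) of each probe set of the 9 measured BCL2 family genes on the exFoxp3Th17, Th17, Treg and Th0 arrays; each point is 1 array, red is the probe set of highest mean log2 signal, grey the others, and the dashed line is the floor of 12.1. All 5 Bcl2 probe sets are lowest in exFoxp3Th17, Pmaip1 is lowest in Th0, and Bid is low on both Th17 arrays.

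Bcl2, the survival gene that names the family, was lowest in exFoxp3Th17. Its main probe set had a signal of 483 in exFoxp3Th17, 2227 in Th17, 1398 in Treg and 1414 in Th0. Set against Th17 it was 4.61-fold lower in exFoxp3Th17 (log2 ratio -2.20), and against Treg 2.89-fold lower (log2 ratio -1.53). The next pair in the order, Treg and Th0, was 1.01-fold apart, and Th17 lay 1.57-fold above Th0, so only exFoxp3Th17 was separated from its neighbour by 2-fold.

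The other 4 Bcl2 probe sets were also lower in exFoxp3Th17 than in Th17, all past 2-fold, as were 7.2% of all probe sets in that comparison. Probe set 1440770_at had signals of 177 in exFoxp3Th17, 867 in Th17, 372 in Treg and 1434 in Th0. For 1437122_at they were 112, 612, 353 and 572 in the same order. All 5 probe sets thus had their lowest signal in exFoxp3Th17, with folds of 3.54 to 5.45 below Th17. Among genes with 3 or more probe sets above the floor, 2.33% had every probe set lower by 2-fold or more there. Against Treg, 4 of the 5 Bcl2 probe sets passed 2-fold (9.71% of all probe sets were called lower) and 1422938_at was 1.82-fold lower, at 73.0 in exFoxp3Th17 and 133 in Treg.

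The place of Th0 depended on the probe set. Between Treg and Th0, 1440770_at was 3.86-fold lower in Treg and 1443837_x_at 4.17-fold lower (138 in Treg against 573 in Th0), whereas the other 3 were 1.01-fold to 1.62-fold lower; 5.68% of all probe sets were called lower. Between Th17 and Th0 these same 2 probe sets were lower in Th17 (log2 ratios -0.73 and -0.88) and the other 3 were higher (0.10 to 0.65). No direction is therefore given for Bcl2 between Th17 and Th0, and its call between Treg and Th0 rests on which probe set is read.

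**Figure D2:**
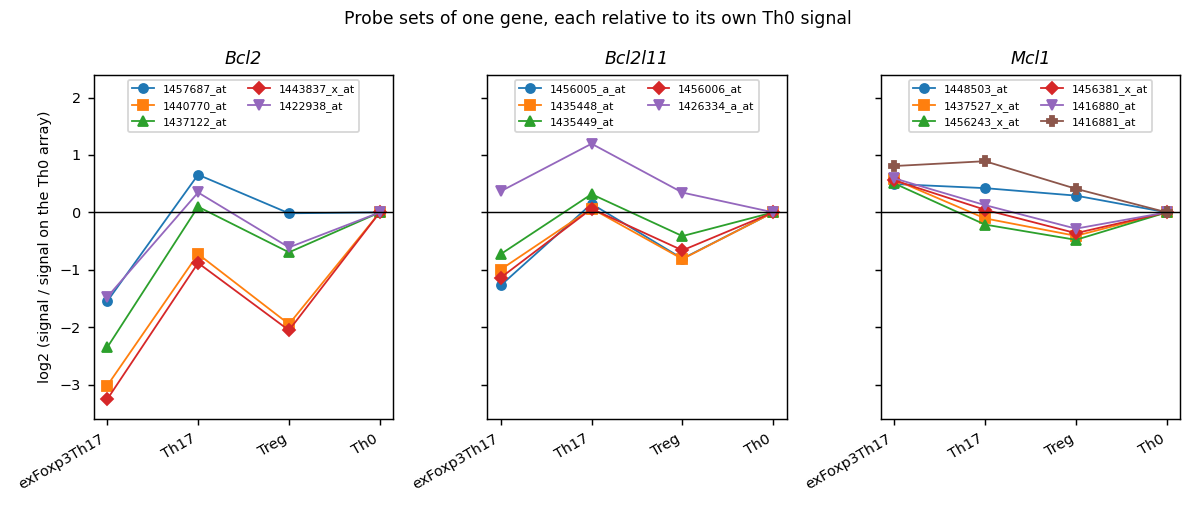
log2 signal of each probe set of Bcl2, Bcl2l11 and Mcl1 relative to its own signal on the Th0 array (y axis), for the exFoxp3Th17, Th17, Treg and Th0 arrays (x axis); each line is 1 probe set. All lines meet at 0 on the Th0 array by construction. For Bcl2 every line is lowest in exFoxp3Th17, and 1440770_at and 1443837_x_at lie below the other 3 lines on the Th17 and Treg arrays.

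Mcl1, whose short-lived protein is needed by most lymphocytes, was within 2-fold in all 4 comparisons by all 6 of its probe sets. The main one had signals of 2956 in exFoxp3Th17, 2813 in Th17, 2570 in Treg and 2100 in Th0. All 6 were higher in exFoxp3Th17 than in Treg, and 4 of them came close to the threshold: 1437527_x_at had 2669 in exFoxp3Th17 and 1351 in Treg, a 1.98-fold difference. The main probe set differed least, by 1.15-fold. The 3 probe sets ending in _x_at can bind other transcripts. Against Th17, 5 of the 6 were higher in exFoxp3Th17, with log2 ratios over all 6 from -0.08 to 0.72.

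Bcl2l1, which encodes BCL-XL, had signals of 115 in exFoxp3Th17, 153 in Th17, 101 in Treg and 117 in Th0 by its main probe set. With the arrays ranked by signal (Th17, Th0, exFoxp3Th17, Treg), no neighbours were more than 1.31-fold apart. Its other 3 probe sets were at 15.2 or less on every array, near or below the floor.

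The changes of the survival genes were unequal within arrays. Between exFoxp3Th17 and Th17 the log2 ratio was -0.41 for Bcl2l1 and -2.20 for Bcl2, a difference of 1.79. For Mcl1 the ratio was 0.07.

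Of the pore formers only Bak1 was measured. Its main probe set had signals of 73.7 in exFoxp3Th17, 63.6 in Th17, 97.9 in Treg and 90.4 in Th0, and no comparison passed 2-fold. Its second probe set lay below the floor on all 4 arrays.

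Bcl2l11, the gene of BIM, was lower in exFoxp3Th17 than in Th17. The main probe set had a signal of 351 in exFoxp3Th17, 940 in Th17, 485 in Treg and 848 in Th0. The exFoxp3Th17 signal was 2.68-fold below Th17 (log2 ratio -1.42) and 1.38-fold below Treg. Both arrays of Foxp3+ origin thus lay under both arrays of naive origin, although Treg and Th0 were only 1.75-fold apart. All 5 probe sets were lower in exFoxp3Th17 than in Th17, 4 of them past 2-fold, and 1426334_a_at was 1.77-fold lower (19.6 in exFoxp3Th17, 34.8 in Th17). That probe set, close to the floor, differed from the others in Th0 (15.2), where it had its lowest signal.

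Bcl2 and Bcl2l11, a survival gene and the gene of a protein its product binds, were the 2 members called lower in exFoxp3Th17 than in Th17, and no member was called higher. Over all genes 7.88% were called lower and 8.18% higher in that comparison. The log2 ratio of Bcl2 was lower than that of Bcl2l11 by 0.78 (a difference of -0.78, with a robust SD between probe sets of 0.42). The median log2 ratio of the 9 members was 0.07, and that of all genes above the floor 0.09.

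The sequences just upstream of the annotated starts of these 2 genes are shown because both were called lower in exFoxp3Th17 than in Th17. Against Treg, Bcl2 was called lower and Bcl2l11 was not. They are the 250 bases before the outermost RefSeq start, from build GRCm38.p6, written 5′ to 3′ on the strand of the gene, and capitals mark the motif matches named below. Bcl2 is at chr1:106714291-106714540 on the minus strand and Bcl2l11 at chr2:128125788-128126037 on the plus strand.
Bcl2: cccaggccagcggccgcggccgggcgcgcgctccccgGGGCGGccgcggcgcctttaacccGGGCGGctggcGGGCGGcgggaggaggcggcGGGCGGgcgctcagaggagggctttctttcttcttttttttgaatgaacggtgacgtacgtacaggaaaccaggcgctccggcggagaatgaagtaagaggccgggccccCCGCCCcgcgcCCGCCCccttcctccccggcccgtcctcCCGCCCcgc
Bcl2l11: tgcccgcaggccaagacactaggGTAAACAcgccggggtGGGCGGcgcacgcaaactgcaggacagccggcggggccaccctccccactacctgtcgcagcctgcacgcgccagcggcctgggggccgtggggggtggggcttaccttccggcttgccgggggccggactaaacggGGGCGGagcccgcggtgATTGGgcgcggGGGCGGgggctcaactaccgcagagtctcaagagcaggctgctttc
Both windows were rich in G and C, at 74.8% for Bcl2 and 72.0% for Bcl2l11, against a median of 52.4% over 32851 windows of the same length. A search of both strands for the GC box GGGCGG found 7 matches in Bcl2 and 3 in Bcl2l11, and 32.7% of all windows hold at least 1. The forkhead motif GTAAACA matched once in Bcl2l11, at position -227, and not in Bcl2, with 3.17% of windows holding it. A CCAAT box, CCAAT, matched at -57 in Bcl2l11 (33.8% of windows). The E-box CACGTG (6.02% of windows), the STAT motif TTCNNNGAA (7.02%), the AP-1 motif TGANTCA (6.75%) and the CRE TGACGTCA (1.55%) had no match in either window. These matches describe the letters only.

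Pmaip1, the gene of NOXA, a BH3-only protein that binds MCL1, had the widest range of the members by main probe set. Its single probe set had a signal of 489 in exFoxp3Th17, 270 in Th17, 418 in Treg and 53.7 in Th0. The Th0 array stood alone at the low end. Th17 was 5.03-fold above Th0 (log2 ratio 2.33) and Treg 7.79-fold above Th0 (log2 ratio 2.96), while neighbours among the other 3 arrays were at most 1.55-fold apart. It was the only member called higher in each of these 2 comparisons, where 8.83% of all genes were called higher in Th17 than in Th0 and 5.87% in Treg than in Th0. The 2 comparisons share the Th0 array. Mcl1 did not move in parallel: relative to Th0, its log2 ratio minus that of Pmaip1 was -2.69 in exFoxp3Th17, -1.91 in Th17 and -2.67 in Treg.

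Bbc3, the gene of PUMA, a BH3-only protein known as a target of p53 and of forkhead factors, was highest in Th0. Its single probe set had a signal of 55.7 in exFoxp3Th17, 29.0 in Th17, 25.8 in Treg and 80.3 in Th0. Th0 lay only 1.44-fold above exFoxp3Th17, so these 2 arrays were not separated by 2-fold. Th17 was 2.77-fold below Th0 and Treg 3.12-fold below Th0, whereas exFoxp3Th17 was 2.16-fold above Treg. Over all genes, 7.35% were called lower in Th17 than in Th0, 5.22% lower in Treg than in Th0 and 12.0% higher in exFoxp3Th17 than in Treg. Against Th17, exFoxp3Th17 was 1.92-fold higher, short of the threshold. The call against Treg was lost with quantile normalization (log2 ratio 0.99) and with the floor added as a pseudocount (0.84).

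Bid, whose protein links death receptors to the mitochondrion after cleavage by caspase 8, was lower on both Th17 arrays. Its main probe set had a signal of 27.7 in exFoxp3Th17, 29.2 in Th17, 78.4 in Treg and 62.7 in Th0. The exFoxp3Th17 signal was 2.83-fold below Treg, and the Th17 signal 2.15-fold below Th0, 2 comparisons that share no array. Of all genes, 1.69% were called lower in both. The other 2 probe sets were dimmer and were highest in Treg, at 20.4 and 19.1, and below the floor on both Th17 arrays. Neither passed 2-fold once raised to the floor. The Bid calls were therefore lost when the probe sets of a gene were averaged (log2 ratios of -0.97 for exFoxp3Th17 against Treg and -0.53 for Th17 against Th0). The call in Th17 against Th0 was also lost with quantile normalization (-0.96) and with the pseudocount (-0.86).

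Bad, whose protein binds BCL2 and BCL-XL and is controlled mainly by phosphorylation, showed no call. One of its probe sets had signals of 141 in exFoxp3Th17, 110 in Th17, 166 in Treg and 142 in Th0, and the other had 182, 125, 139 and 114 in the same order. Both were higher in exFoxp3Th17 than in Th17 by 1.29-fold and 1.46-fold, and for Th17 against Th0 they went opposite ways.

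**Figure D3:**
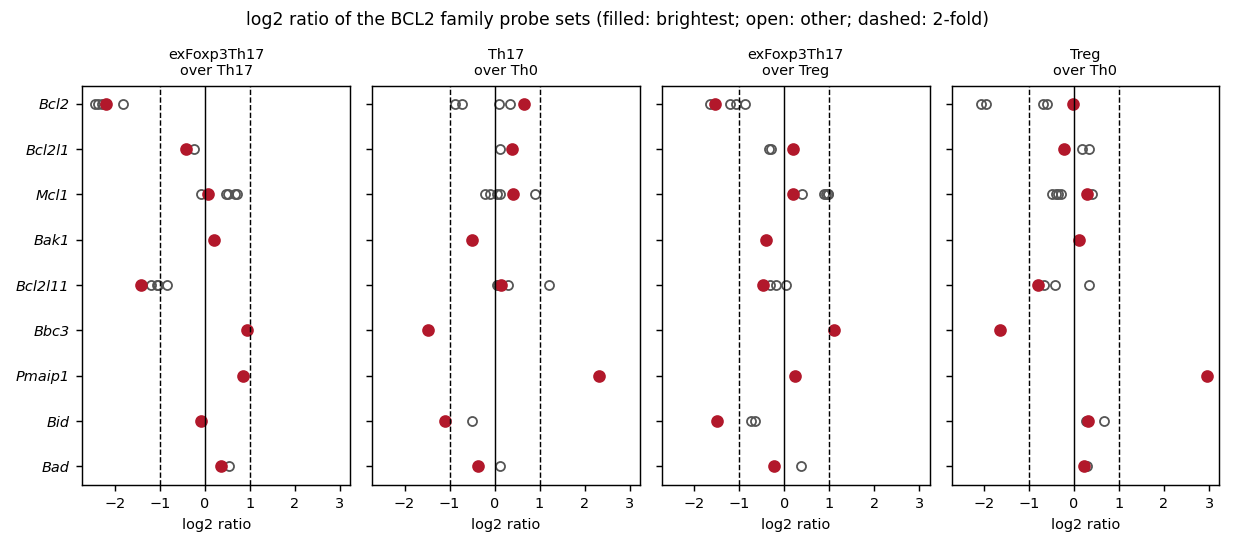
log2 ratio (x axis) of each member probe set above the floor in exFoxp3Th17 over Th17, Th17 over Th0, exFoxp3Th17 over Treg and Treg over Th0; filled points are the main probe sets, open points the others, and dashed lines mark 2-fold. Bcl2 and Bcl2l11 are the main points left of the line in the first panel, and Pmaip1 reaches 2.33 and 2.96 in the panels against Th0.

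Counted by comparison, 2 members were lower and none higher in exFoxp3Th17 against Th17, as above. For exFoxp3Th17 against Treg, Bcl2 and Bid were lower and Bbc3 higher, with 10.5% of all genes called lower and 12.0% higher. In Th17 against Th0, Bbc3 and Bid were lower and Pmaip1 higher. Only Bbc3 was lower and only Pmaip1 higher in Treg against Th0. The median log2 ratio of the 9 members in these 3 comparisons was -0.23, 0.15 and 0.11, against 0.07, -0.07 and -0.04 for all genes. With 9 members, each call is 1 gene in 9, so the shares are read beside the percentages only as a description.

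The Th17 cultures could be set against the control of each origin without a shared array. For Bbc3 the log2 ratio was 1.11 in exFoxp3Th17 over Treg and -1.47 in Th17 over Th0, and 1.17% of all genes were called in these opposite directions. Bcl2 had -1.53 and 0.65 by its main probe set, the second of which was no call and not shared by all its probe sets. Bid was lower in both. Pmaip1 had 0.23 and 2.33, since it was already high in Treg. The culture medium of the controls also differed, IL-2 for Treg and Th0 conditions for Th0, so origin and control culture cannot be told apart here.

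**Figure D4:**
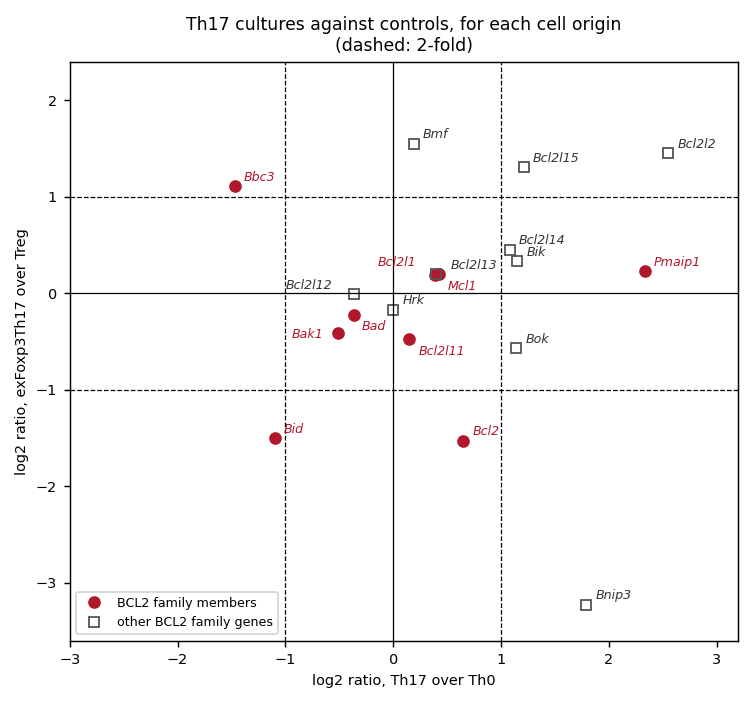
log2 ratio of Th17 over Th0 (x axis) against exFoxp3Th17 over Treg (y axis) for the main probe sets of the 9 measured members (red circles) and of other BCL2 family genes above the floor on at least 1 array (open squares); dashed lines mark 2-fold. Bbc3 lies at -1.47 and 1.11, Bid is below -1 on both axes, and Pmaip1 is past 2-fold on the x axis alone.

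Of 16 further family genes listed, 11 had a single-gene probe set, and 6 of the 9 above the floor were called higher in Th17 than in Th0, with none lower and a median log2 ratio of 1.14. Over all genes 8.83% were higher and 7.35% lower there, with a median of -0.07. Bcl2l2, the gene of the survival protein BCL-W, had signals of 191 in exFoxp3Th17, 125 in Th17, 69.9 in Treg and 21.4 in Th0, a 5.85-fold difference between Th17 and Th0. Its other probe sets were dimmer. None of them was above the floor in Th17 or Th0, so that difference rests on 1 probe set. Of the 3 above the floor in exFoxp3Th17 or Treg, 2 were also higher in exFoxp3Th17, 1 of them past 2-fold. The lowest log2 ratio of the 3 was -0.06. Bnip3, an atypical BH3-only gene of mitophagy known to respond to hypoxia, had 263 in exFoxp3Th17, 2837 in Th17, 2458 in Treg and 823 in Th0. It was 10.8-fold lower in exFoxp3Th17 than in Th17. The other 4 called in Th17 against Th0 were dim: Bik (46.2 in Th17, 20.9 in Th0), Bcl2l14 (32.8 and 15.5), Bok (26.8 and 1.71) and Bcl2l15 (28.0 and 0.406). Bok and Bcl2l15 lay below the floor in Th0, so their folds are bounds. Bcl2l2, Bik and Bcl2l14 lay within 2-fold of the floor in Th0. None of these genes could have been called lower in Th17 than in Th0. Of the called genes, only Bnip3 was open to a call in both directions. The median of 1.14 is the ratio of Bok and is set by the floor. Against Treg, 3 of 10 were higher in exFoxp3Th17 (Bcl2l2, Bmf and Bcl2l15) and Bnip3 was lower, where 12.0% of all genes were higher and 10.5% lower. Bcl2l15 lay below the floor in Treg too, at 7.54. In Treg against Th0, 2 of 9 were higher, Bcl2l2 and Bnip3, against 5.87% of all genes. The only other Bcl2l2 probe set above the floor there had a log2 ratio of 0.06. Bcl2l2 could not have been called lower in Treg than in Th0.

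Bmf, the gene of a BH3-only protein released from the cytoskeleton, had signals of 94.9 in exFoxp3Th17, 42.9 in Th17, 32.4 in Treg and 37.6 in Th0. It was 2.21-fold above Th17 and 2.93-fold above Treg. Bmf was the only further family gene called higher in exFoxp3Th17 than in Th17, while Bnip3 and Bok (at least 2.21-fold) were lower, which is 1 higher and 2 lower of 9, against 8.18% and 7.88% of all genes. The 4 Bcl2a1 paralogues listed and Bnip3l were not analysed here.

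In the list of the caspase cascade downstream of the mitochondrion, 2 of 14 genes were lower in exFoxp3Th17 than in Th17 and none higher, against 7.88% and 8.18% of all genes. They were the nuclease Endog (94.9 in exFoxp3Th17, 334 in Th17) and Casp6 (347 and 715). Against Treg, Endog, the cytochrome c gene Cycs (1835 in exFoxp3Th17, 4093 in Treg) and the survivin gene Birc5 (686 and 2260) were lower and the inhibitor Birc2 was higher (846 and 383), so 3 of 14 were lower and 1 higher, against 10.5% and 12.0% of all genes. In Th17 against Th0, Casp6 and Birc3 were higher and Birc5 lower (8.83% of all genes were higher and 7.35% lower). None of the 14 was called in Treg against Th0, where 5.87% of all genes were higher and 5.22% lower. None of 8 listed genes of mitochondrial membrane partners was called in any of the 4 comparisons.

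Among death receptor genes, which feed into Bid, Casp8 had signals of 519 in exFoxp3Th17, 1098 in Th17, 1345 in Treg and 1106 in Th0. It was called lower in exFoxp3Th17 against Th17 and against Treg, as was the kinase gene Ripk3. The receptor gene Tnfrsf1a was higher in both. Fasl lay below the floor on both Th17 arrays (4.41 in exFoxp3Th17 and 4.49 in Th17) and at 50.3 in Treg and 41.3 in Th0. In all, 2 of 8 genes above the floor were higher and 2 lower in exFoxp3Th17 against Th17, and 2 of 9 higher and 4 lower against Treg. Over all genes 8.18% were higher and 7.88% lower against Th17, and 12.0% higher and 10.5% lower against Treg.

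Cytokine receptors known to maintain the survival genes were also listed. Il2ra, the high-affinity chain of the IL-2 receptor, stood at 103 in exFoxp3Th17, 2178 in Th17, 2878 in Treg and 646 in Th0, and Il7r, the IL-7 receptor, at 3049, 2378, 297 and 1267 in the same order. In that list of survival cytokine receptors and signals, 5 of 14 genes were lower and 1 higher in exFoxp3Th17 than in Th17, and 5 lower and 2 higher than in Treg. The shares over all genes were 7.88% lower and 8.18% higher against Th17, and 10.5% lower and 12.0% higher against Treg. In Th17 against Th0, 4 were higher and none lower, and in Treg against Th0, 4 were higher and 2 lower. All genes had 8.83% higher and 7.35% lower in Th17 against Th0, and 5.87% higher and 5.22% lower in Treg against Th0. Foxo1, a forkhead factor known to drive Bcl2l11 and Bbc3, had signals of 933 in exFoxp3Th17, 473 in Th17, 402 in Treg and 524 in Th0, and was called higher in exFoxp3Th17 than in Treg (2.32-fold). Neither of the other 2 Foxo1 probe sets above the floor passed 2-fold there, though both were higher. Its list of 10 measured forkhead and stress regulators had 3 lower and none higher in exFoxp3Th17 against Th17, among them Trib3 (26.5 in exFoxp3Th17, 127 in Th17), against 7.88% and 8.18% of all genes. Against Treg, 3 were lower and 2 higher (Foxo1 and the stress gene Ddit3), against 10.5% and 12.0% of all genes. The other Ddit3 probe set was short of 2-fold, at a log2 ratio of 0.36. In Th17 and in Treg against Th0, 1 of the 10 was higher, Chac1, and none lower. Over all genes 8.83% were higher and 7.35% lower in Th17, and 5.87% higher and 5.22% lower in Treg. Chac1 lay below the floor in Th0, at 9.37, so both of its folds are bounds.

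Bbc3 and Pmaip1 are both known p53 targets, and a list of the p53 response was read beside them. Of 11 measured, 2 were higher and 2 lower in exFoxp3Th17 against Th17, and 3 were higher and 1 lower both in Th17 and in Treg against Th0. The shares over all genes were 8.18% and 7.88%, then 8.83% and 7.35%, and 5.87% and 5.22%, each higher and lower. Cdkn1a, Perp and Sesn2 were the 3 called higher against Th0, as Pmaip1 was, and Sesn1 was the 1 called lower, as Bbc3 was. Perp lay below the floor in Th0, at 9.57, so its folds against Th0 are bounds. Sesn2 lay within 2-fold of the floor there, at 15.6. Neither Perp nor Sesn2 could have been called lower than in Th0. Against Treg, 1 was higher and 1 lower in exFoxp3Th17, where 12.0% of all genes were higher and 10.5% lower. Cdkn1a, a cell cycle inhibitor, had signals of 76.9 in exFoxp3Th17, 727 in Th17, 434 in Treg and 74.9 in Th0. Sesn1, a stress-response gene, was at 898, 227, 456 and 1047 in the same order. Of 9 measured genes for turnover of MCL1 and BIM protein, 8 were above the floor in each comparison with exFoxp3Th17. In exFoxp3Th17, 1 was higher (Mapk8) and 1 lower (Cdk1), both against Th17 and against Treg. Over all genes, 8.18% were higher and 7.88% lower against Th17, and 12.0% higher and 10.5% lower against Treg. None of the other 3 Mapk8 probe sets above the floor passed 2-fold against Th17.

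**Figure D5:**
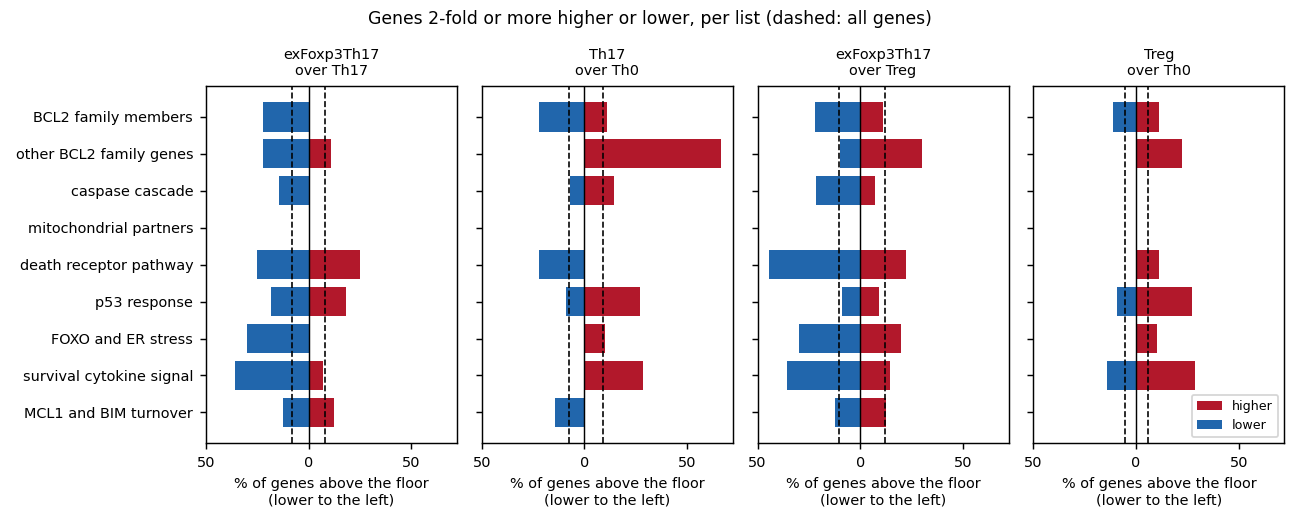
Share of the genes above the floor in each list (x axis, percent) that were 2-fold or more higher (red, right) or lower (blue, left) in each comparison; dashed lines give the same shares over all genes. Lists hold 7 to 14 genes above the floor, so 1 gene is a large step.

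The genes whose profile over the 4 arrays lay nearest to a member were found among 8714 genes with a signal above 4 times the floor on at least 1 array, by the Euclidean distance of centred log2 values. Nearest to Pmaip1 were Rnase4 (distance 0.209), Ttc39c (0.375) and the p53 target Perp (0.417). For Bcl2 they were 2500002B13Rik (0.197), Ppan, a ribosome biogenesis gene (0.222), and Myc (0.227), which had signals of 222 in exFoxp3Th17, 986 in Th17, 527 in Treg and 567 in Th0. Slc12a7 (0.194), Arhgef4 (0.212) and Adck1 (0.222) were nearest to Bbc3. Ttc39c and Perp lay below the floor in Th0, at 1.21 and 9.57, and 2500002B13Rik in exFoxp3Th17, at 11.6. These values were raised to the floor, so the distances of these genes depend in part on it. With 4 points per gene, many genes lie close to any profile, and the Bcl2 neighbours belong to its main probe set.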

How the data were processed

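Signal intensities of 45101 probe sets on 4 arrays were deposited by the authors on a linear scale. The submitters' processing notes name MAS5, with no version. The mean after trimming 2% at each end was 100 on every array, so the deposited scaling was kept. RNA input was 1 µg per sample, per the labels.

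Gene names came from GEO's annotation of the platform, with symbols updated through gene identifiers in RefSeq (GRCm38.p6): of the 45037 that are not controls, 34945 have a single symbol, 932 several and 9160 are unnamed here. The floor was the median of non-control signals over all arrays (12.1), and values below it were raised to it before log2. A gene was read from its probe set of highest mean log2 value and called at 2-fold if the higher array was above the floor. Where the lower array is under the floor, the fold is a bound, written "at least". Percentages over all genes use those above the floor on at least 1 of the 2 arrays compared. The number of arrays limits precision: 1 per group, no tests. Python 3.11.15, numpy 2.4.6, pandas 2.3.3 and scipy 1.17.1 were used, and the step that makes the calls was tested on simulated data.

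The members and lists were chosen with earlier results of these data known. Named genes were all members, up to 6 called genes per list, and the 3 nearest profiles of the 3 members with the widest range; Il7r, Foxo1 and others come from these lists, and Xist, Eif2s3y, Foxp3, Il17a, Cd8a, Cd8b1, Cd79a, Cd79b, Ms4a1 and Adgre1 were added as checks, some of them after their values were seen. Promoter motifs were chosen after the values were seen. A planned search of protein sequences for the BH3 motif was not run. Alternatives covered the floor, the scaling, the fold threshold and the choice of probe set.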

Additional observations from a re-analysis of the deposited data

Results flagged for a closer look

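Bbc3 went in opposite directions in the 2 comparisons of Th17 cultures with their controls, which share no array. Its log2 ratio was 1.11 in exFoxp3Th17 over Treg and -1.47 in Th17 over Th0, both past 2-fold. It has 1 probe set, with signals of 55.7 in exFoxp3Th17, 25.8 in Treg, 29.0 in Th17 and 80.3 in Th0. The difference between the comparisons was not tested, since each rests on 2 arrays. The first value fell short of 2-fold under 2 of 9 alternatives that kept the threshold (0.84 and 0.99). Alternatives in the choice of probe set, or in the floor without a pseudocount, could not change it.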

How the results depend on the processing

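No paired analysis was possible because each group has 1 array. Of the 10 calls of members, 7 held under all 9 alternatives that kept the 2-fold threshold, and no called member changed sign. The exceptions were Bbc3 in exFoxp3Th17 against Treg, and Bid in both of its comparisons. Not all of the 9 alternatives could change a call. Bbc3 and Pmaip1 have 1 probe set each, so alternatives in the choice of probe set could not change their calls. For exFoxp3Th17 against Treg, the count of members called higher was 0 in place of 1 under quantile normalization, the pseudocount and a 3-fold threshold. The count called lower was 1 in place of 2 with the mean or the median over probe sets, and 0 at 3-fold. In Th17 against Th0, members called lower were 1 in place of 2 under quantile normalization, the pseudocount and the mean or median over probe sets, and 0 at 3-fold, and 2 in place of 1 were higher at 1.5-fold. In exFoxp3Th17 against Th17, 1 in place of 2 was lower at 3-fold and 2 in place of 0 were higher at 1.5-fold. In Treg against Th0, 2 in place of 1 were lower at 1.5-fold, and likewise with the mean over probe sets, which added Bcl2 (log2 ratio -1.07). The median log2 ratio of the members moved by less than the robust SD between probe sets under every alternative run. The 3 alternative floors run without a pseudocount could not change any of the 10 calls. The lowest main probe set signal behind a call, 25.8 for Bbc3 in Treg, lay above the highest of these floors. Leaving out probe sets ending in _x_at or _s_at could not change any of the 10 calls either. No main probe set behind a call has such an ending.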
